A study of Mus musculus with 64 samples.

Results

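Transthyretin (Ttr), folate receptor 1 (Folr1), klotho (Kl), chloride intracellular channel 6 (Clic6), aquaporin 1 (Aqp1), orthodenticle homeobox 2 (Otx2), the prolactin receptor (Prlr), coagulation factor V (F5) and sclerostin domain containing 1 (Sostdc1) are genes used as markers of the choroid plexus. These 9 of the 55401 genes in the count table were taken by symbol, and each matched 1 gene identifier. RNA had been sequenced from the whole hypothalamus and the prefrontal cortex (PFC) of 32 male C57BL/6J mice, chow-fed, group-housed and 10 weeks old at the start. A single intraperitoneal injection of psilocybin, a serotonergic psychedelic, at 3 mg/kg or of isotonic saline was given, and tissue was taken 3 h or 4 weeks later, always 4 h after light onset. Each of the 4 combinations of treatment and harvest held 8 mice, and each mouse gave both regions, so there were 8 groups of 8 libraries. The labels name no transgene and no other agent in any group. The sequencing was an exploratory look at acute and lasting effects of psilocybin on transcription, within a study of feeding and body weight. The replicate number of a library is the number of the mouse's cage. RNA was extracted in 4 pools, 2 for each region, of which the first held cages 1 to 4 and the second cages 5 to 8, so that region cannot be told apart from extraction pool, nor pool from cage.

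The choroid plexus is a sheet of epithelium that hangs in the brain ventricles and secretes the cerebrospinal fluid. Its epithelial cells are known for very abundant transthyretin, which carries thyroid hormone, and for water channels, ion channels and a receptor that moves folate into the fluid. A ventricle runs through the middle of the hypothalamus, while no ventricle lies inside the prefrontal cortex itself. Several of the 9 genes are not private to this epithelium: transthyretin and factor V are also made by the liver, the prolactin receptor is also found in hypothalamic neurons and in liver, and aquaporin 1 in several epithelia and endothelia.

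Of the 64 libraries, 62 held between 8061033 and 70361839 counted reads (median 18287978.5) and were used, 31 from each region. The other 2, saline 3 h replicate 2 of the hypothalamus and psilocybin 4 weeks replicate 3 of the PFC, held 211111 and 200066 counts and were left out. The dissections were checked with markers: all 9 tested markers of hypothalamic neurons were higher in the hypothalamus libraries, and 6 of 7 markers of cortical excitatory neurons were higher in the PFC libraries (edgeR's quasi-likelihood test, Benjamini-Hochberg adjusted p under 0.05). Ependymal cells, which line the ventricles, were represented in the hypothalamus by marker genes summing to a median of 185 CPM (counts per 1000000 reads of a library, normalised for its composition), against 13.3 in the PFC, and all 14 of these markers passed the test.

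All 9 genes passed the filter on low counts that left 18971 genes for testing. On the scale of CPM per kilobase of exon (RPKM), which allows levels to be compared between genes, the median over the hypothalamus libraries was 7.15 for Ttr, 6.60 for Clic6, 3.07 for Prlr, 1.27 for Otx2, 1.21 for Sostdc1, 0.940 for Kl, 0.462 for Folr1, 0.280 for F5 and 0.207 for Aqp1. In the PFC the order of median RPKM was Ttr at 2.61, Kl at 0.461, Clic6 at 0.335, Aqp1 at 0.234, Sostdc1 at 0.216, Folr1 at 0.162, F5 at 0.147, Prlr at 0.0598 and Otx2 at 0.0370. In both orders the ranges over libraries of each pair of neighbours overlapped.

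In the table of RefSeq start sites used here, 5 of the 9 genes matched by symbol, with 10 windows of 250 bases before a start site. They were F5, Aqp1, Kl, Otx2 and Prlr (build GRCm38.p6). The 4 windows that held a searched motif are shown, 5′ to 3′ on the strand of the gene, because F5 and Aqp1 were high in all 3 hypothalamus libraries with the most Ttr described below and Kl in 1 of them, and because Otx2 is the transcription factor among them. Capitals mark the GC box GGGCGG (searched on both strands, so that CCGCCC also counts), or in the Otx2 sequence the letters TAATCC bound by OTX2-type homeodomains (GGATTA on the other strand). Of the 10 windows 3 held the GC box and 1 the OTX2-type letters. Over all 32851 windows of this length the shares were 32.7% and 6.25%, so these matches are a description and no site. The windows are chr1:164151585-164151834 for F5 on the plus strand, chr6:55336049-55336298 for Aqp1 on the plus strand, chr5:150952357-150952606 for Kl on the plus strand and chr14:48665110-48665359 for 1 of the 4 start sites of Otx2 on the minus strand.
F5: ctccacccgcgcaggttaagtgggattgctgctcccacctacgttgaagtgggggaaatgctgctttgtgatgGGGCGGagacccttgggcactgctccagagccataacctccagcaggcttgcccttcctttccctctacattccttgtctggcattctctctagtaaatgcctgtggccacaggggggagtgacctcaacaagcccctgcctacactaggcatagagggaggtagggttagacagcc
Aqp1: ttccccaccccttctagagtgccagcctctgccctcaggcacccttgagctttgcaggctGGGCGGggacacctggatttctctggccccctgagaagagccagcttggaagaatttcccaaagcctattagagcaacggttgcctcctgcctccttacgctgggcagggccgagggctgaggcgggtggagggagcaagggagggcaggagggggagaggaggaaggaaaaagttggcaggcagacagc
Kl: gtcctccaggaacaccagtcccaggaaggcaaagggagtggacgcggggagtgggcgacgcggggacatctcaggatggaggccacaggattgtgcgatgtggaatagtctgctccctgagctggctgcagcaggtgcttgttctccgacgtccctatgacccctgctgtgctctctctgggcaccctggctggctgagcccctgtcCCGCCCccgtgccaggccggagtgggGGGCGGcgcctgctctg
Otx2: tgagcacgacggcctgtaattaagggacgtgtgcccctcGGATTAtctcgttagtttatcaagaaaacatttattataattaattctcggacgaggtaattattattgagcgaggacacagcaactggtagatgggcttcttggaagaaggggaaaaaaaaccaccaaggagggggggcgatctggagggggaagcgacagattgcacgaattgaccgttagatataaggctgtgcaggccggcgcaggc

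Among the 9 genes, Ttr had the widest spread between libraries. In the hypothalamus it ranged from 0.586 to 1114 CPM (median 8.47, n = 31), and in the PFC from 0.286 to 47.0 CPM (median 3.09, n = 31). The SD of its log2 CPM was 2.45 in the hypothalamus and 1.77 in the PFC, against a median SD over all 18971 genes of 0.287 and 0.298, which placed Ttr 22nd and 44th from the top. Aqp1 and F5 followed in the hypothalamus, with SDs of 1.35 and 1.28, whereas Clic6 varied there like the middle gene (SD 0.301). In the PFC the order was different, and Clic6 varied by 1.22, Aqp1 by 1.13 and Otx2 by 1.06 on the same scale.

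**Figure D1:**
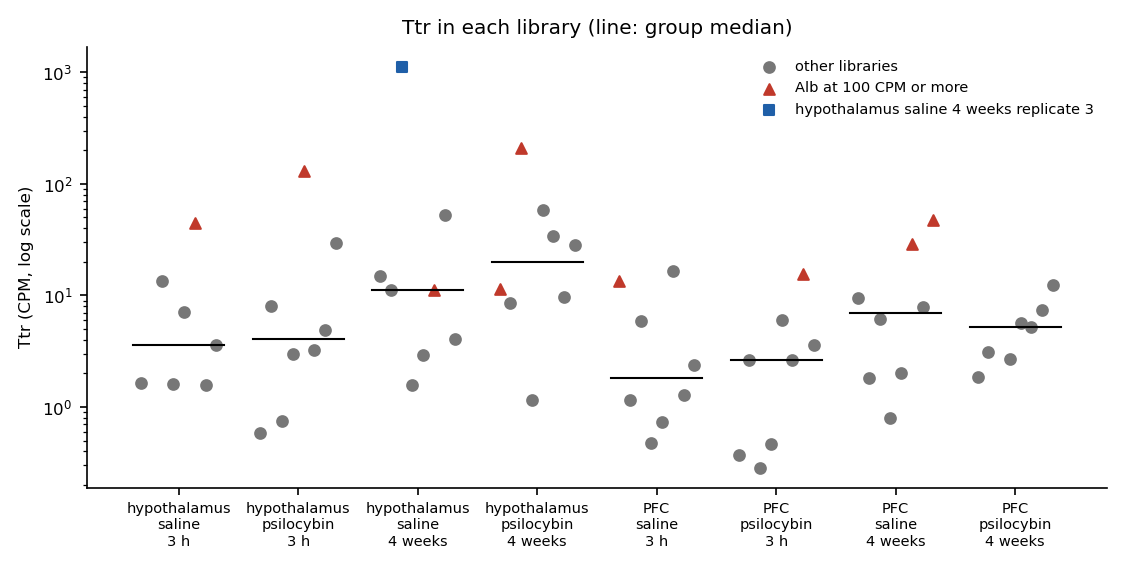
Ttr in each of the 62 libraries, in CPM on a log scale, by region, treatment and harvest. Horizontal lines are group medians, which lie between 1.82 and 19.8 CPM, and single libraries reach 1114 CPM (blue square) or carry at least 100 CPM of the liver gene Alb (red triangles).

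Within a group the Ttr levels of single mice differed far more than the groups did. The lowest, median and highest values were 1.56, 3.58 and 44.1 CPM in hypothalamus saline 3 h, and 0.586, 4.08 and 129 CPM in hypothalamus psilocybin 3 h. At 4 weeks they were 1.58, 11.2 and 1114 CPM with saline and 1.17, 19.8 and 208 CPM with psilocybin. All 4 hypothalamus groups overlapped between 1.58 and 44.1 CPM. In the PFC the lowest, median and highest values were 0.477, 1.82 and 16.6 CPM in saline 3 h, 0.286, 2.65 and 15.7 CPM in psilocybin 3 h, 0.792, 7.00 and 47.0 CPM in saline 4 weeks, and 1.84, 5.24 and 12.5 CPM in psilocybin 4 weeks, again with overlapping groups.

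The libraries with the most Ttr were of more than one kind. One kind was a single library, hypothalamus saline 4 weeks replicate 3, in which most of the 9 choroid plexus genes stood high. Against the median of 25 other hypothalamus libraries (all except those with much RNA of the liver gene albumin, Alb, below), Ttr was 227 times as high there at 1114 CPM. The transport genes were at 7.92 CPM for Aqp1 (16.1 times the median), 9.15 CPM for Folr1 (9.27 times) and 45.7 CPM for Clic6 (1.83 times). Of the secreted factors, F5 was at 26.6 CPM (13.5 times) and Sostdc1, an inhibitor of bone morphogenetic protein signals, at 11.6 CPM (5.40 times). Kl, the co-receptor of a phosphate-regulating growth factor, was at 55.0 CPM (6.53 times). Otx2, a homeodomain factor of this epithelium, was at 10.5 CPM (2.00 times) and Prlr at 60.9 CPM (1.30 times), and for these 2 genes other hypothalamus libraries reached similar levels.

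Choroid plexus genes outside the 9 moved the same way in that library. Tmem72, a membrane protein gene known mainly from this epithelium, was at 18.6 CPM, and in the 25 other libraries it lay between 0.195 and 1.37 CPM. Kcnj13, an inward rectifier potassium channel, was at 6.69 CPM against at most 0.716 CPM in the others. In the PFC, however, Kcnj13 lay between 1.06 and 5.16 CPM (median 1.95), above all 25 of these libraries. It is therefore no marker of this epithelium alone. Of 27 further choroid plexus genes found in the table, 16 were above every one of the 25 libraries, and the 27 summed to 1236 CPM against 316 to 434 CPM. Enpp2 alone gave 887 CPM of this, and without it the sum was 349 CPM against 103 to 253 CPM. Meningeal and fibroblast markers were also high, with 9 of 10 above every one of the others, while none of the 14 ependymal markers, none of the hypothalamic neuron markers and none of 20 liver genes was. Alb was at 0.335 CPM in this library, and 10 of the 20 liver genes had no count.

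In the second kind of library, genes expressed by the liver were high. Alb reached at least 100 CPM in 9 libraries, 5 from the hypothalamus and 4 from the PFC, against a median of 1.78 CPM in the 25 other hypothalamus libraries. The highest levels of Alb were 3789 CPM in hypothalamus psilocybin 4 weeks replicate 3, 2771 CPM in hypothalamus psilocybin 3 h replicate 5 and 1099 CPM in PFC saline 4 weeks replicate 8. These were the libraries with the second and the third highest Ttr of the hypothalamus, at 208 and 129 CPM, and the highest Ttr of the PFC, at 47.0 CPM. All 20 liver genes were above every one of the 25 hypothalamus or 27 PFC libraries outside the 9 and saline 4 weeks replicate 3 in 5 of the 9, the 3 named and PFC saline 4 weeks replicate 6 and PFC psilocybin 3 h replicate 7. The list of liver genes was written after the values had been seen, and it has no member among the 9.

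In hypothalamus psilocybin 4 weeks replicate 3, the genes of the set split. Ttr, F5 and Aqp1 were 42.4, 15.3 and 18.4 times the median of the 25 libraries, at 208, 30.2 and 9.07 CPM. Folr1 was at 0.577 CPM (0.584 times), Sostdc1 at 1.24 CPM (0.575 times), Otx2 at 4.04 CPM (0.771 times), Clic6 at 20.8 CPM (0.829 times) and Kl at 9.23 CPM (1.10 times), and Tmem72 had no count, where 3 reads would have been 0.247 CPM. Prlr was at 68.3 CPM (1.45 times), above all 25, and Kcnj13 at 0.330 CPM (1.29 times), with 8 of the 25 above it. The other library, hypothalamus psilocybin 3 h replicate 5, also had high Ttr, F5 and Aqp1, at 129, 18.4 and 6.97 CPM. Its Tmem72 was at 0.270 CPM and its Kcnj13 at 0.0770 CPM, both below the median of the others, and its Sostdc1, Kl and Clic6 were 1.02, 1.20 and 0.978 times the median. Otx2 and Folr1 were 2.00 and 1.87 times the median there, within the range of the 25 libraries.

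**Figure D2:**
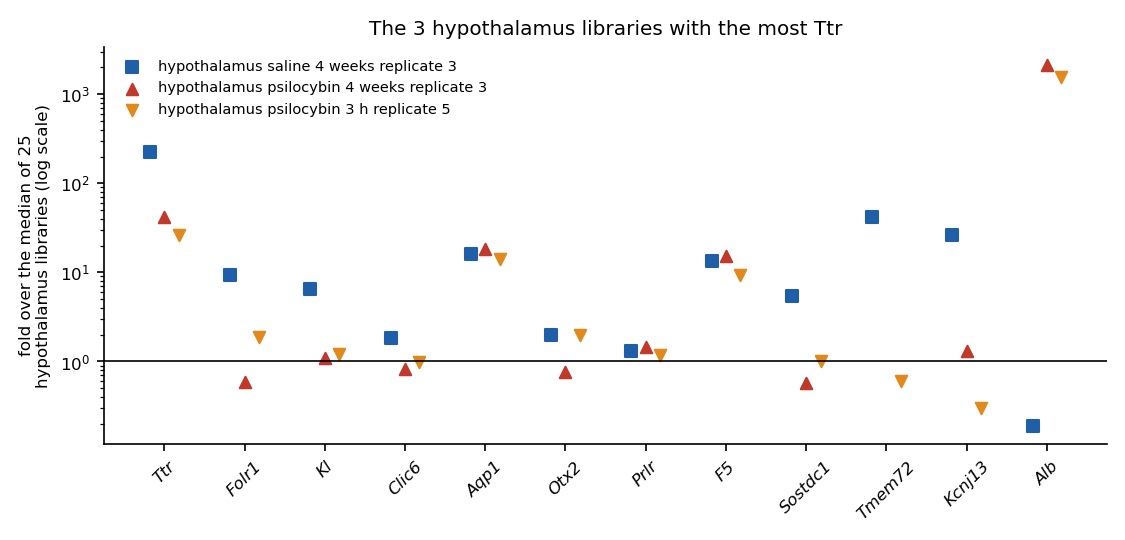
The 9 genes, Tmem72, Kcnj13 and Alb in the 3 hypothalamus libraries with the most Ttr, each as fold over the median of 25 other hypothalamus libraries (log scale, line at the median). Points for no count (Tmem72 in psilocybin 4 weeks replicate 3) cannot be drawn on a log axis. All 3 libraries are high in Ttr, Aqp1 and F5, while Folr1, Kl, Sostdc1, Tmem72 and Kcnj13 are all high in saline 4 weeks replicate 3.

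Over the 9 libraries with at least 100 CPM of Alb, Ttr was between 4.00% and 40.8% of Alb (median 4.88%). In the 5 of them with at least 300 CPM of Alb, which came from both regions, Ttr was between 4.17% and 5.50% of Alb (median 4.67%). The minimum of 300 CPM was chosen after the values had been seen. The further choroid plexus list summed to 378 CPM in hypothalamus psilocybin 4 weeks replicate 3 and 356 CPM in hypothalamus psilocybin 3 h replicate 5, within the 316 to 434 CPM of the 25 libraries, and 3 and 1 of its 27 genes were above every one of the 25. In 2 others of the 9 the sum was above that range, at 446 CPM in hypothalamus psilocybin 4 weeks replicate 1, with 7 of the 27 genes above all 25, and at 700 CPM in PFC psilocybin 3 h replicate 7, with 9 genes above all 27 PFC libraries (413 to 671 CPM). Without Enpp2 the sums of these 4 libraries were 169, 160, 211 and 414 CPM, of which only the last was above the range of its region (103 to 253 CPM in the hypothalamus and 119 to 314 CPM in the PFC). Of the 10 meningeal markers, 9 and 5 were above all others in hypothalamus psilocybin 4 weeks replicate 1 and PFC psilocybin 3 h replicate 7. The number was 8 in saline 3 h replicate 6, 6 in saline 4 weeks replicate 6, 5 in psilocybin 4 weeks replicate 3 and 1 in psilocybin 3 h replicate 5 of the hypothalamus, and 0 in the other libraries with much Alb, all from the PFC. Kcnj13 was above all 25 libraries in psilocybin 4 weeks replicate 1 (1.65 CPM, 6.48 times the median), saline 3 h replicate 6 (0.979 CPM, 3.84 times) and saline 4 weeks replicate 6 (0.741 CPM, 2.91 times) of the hypothalamus. In hypothalamus saline 4 weeks replicate 3, 0 of the 14 ependymal markers, genes of the cells that line the ventricle, were above all 25. The 2 libraries richest in Alb lay within or below the range of the 25 in Tmem72, Kcnj13, Folr1, Kl, Sostdc1 and the list sum, and in the other libraries with much Alb the choroid plexus markers were mixed. How liver and choroid plexus RNA came into these libraries was not tested.

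**Figure D3:**
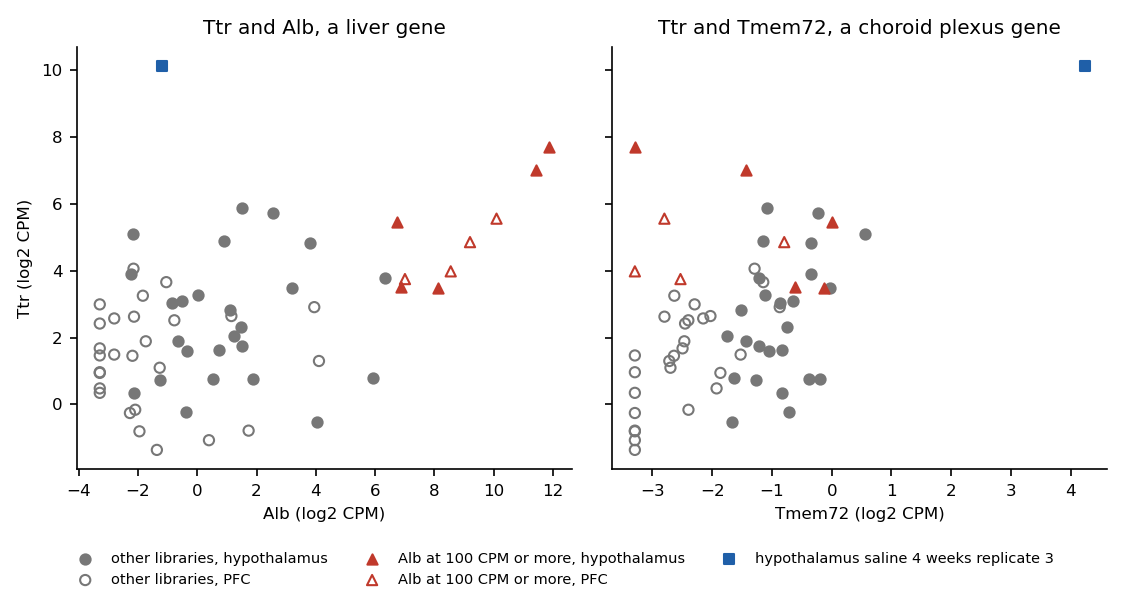
Ttr against Alb (left) and against Tmem72 (right), in log2 CPM, with 1 point for each of the 62 libraries. Hypothalamus libraries are filled and PFC libraries open. On the left the libraries with at least 100 CPM of Alb (red) run up to 208 CPM of Ttr with rising Alb, and on the right the 2 with the most Alb lie at low Tmem72 (0.270 CPM and no count) and the others among the rest, while hypothalamus saline 4 weeks replicate 3 (blue) stands at low Alb and high Tmem72.

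Across libraries, Ttr was compared with the other 8 genes within each region (16 relations, on log2 CPM after group and extraction pool had been removed, permutation test with 100000 resamples, two-sided, Benjamini-Hochberg over the 16). Over the 31 hypothalamus libraries Ttr rose with F5 (Pearson's r = 0.77, Spearman's rho = 0.61, p = 1e-05, the smallest the permutations can give, adjusted p = 0.00016), Aqp1 (r = 0.74, rho = 0.60, p = 3e-05, adjusted p = 0.00024), Otx2 (r = 0.66, rho = 0.65, p = 0.0001, adjusted p = 0.000533), Folr1 (r = 0.64, rho = 0.62, p = 0.00038, adjusted p = 0.00131), Kl (r = 0.63, rho = 0.57, p = 0.00048, adjusted p = 0.00131) and Sostdc1 (r = 0.51, rho = 0.34, p = 0.00605, adjusted p = 0.0138). The r with Clic6 was 0.32 (adjusted p = 0.147) and with Prlr 0.0596 (adjusted p = 0.786). On CPM without logs Clic6 passed (r = 0.63, adjusted p = 0.011), but not without the 2 farthest libraries (0.16). Without the 2 libraries farthest from the median Ttr, r was 0.61 with F5, 0.56 with Aqp1, 0.51 with Otx2, 0.44 with Folr1, 0.34 with Kl (adjusted p = 0.119) and 0.22 with Sostdc1 (adjusted p = 0.39), so the last 2 did not pass without those libraries. On CPM without logs both did, with r = 0.78 for Kl (adjusted p = 0.00016) and 0.57 for Sostdc1 (adjusted p = 0.00365, permutation test), while Otx2 did not (0.21).

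The 9 libraries with much Alb and saline 4 weeks replicate 3 were picked out after the values had been seen, the last of them for its Ttr. Without these 10, the genes that went with Ttr in the hypothalamus were Otx2 (r = 0.69, adjusted p = 0.00384), Folr1 (r = 0.62, adjusted p = 0.00472) and Sostdc1 (r = 0.57, adjusted p = 0.0106, permutation test, n = 25). F5 (r = 0.37), Aqp1 (r = 0.20) and Kl (r = 0.13) no longer passed. In the PFC, F5 (r = 0.59, rho = 0.51, p = 0.00049, adjusted p = 0.00131) and Prlr (r = 0.43, rho = 0.50, p = 0.0142, adjusted p = 0.0284) passed over 31 libraries by the same permutation test. In the 27 PFC libraries without much Alb neither did, with r = 0.20 for F5 and 0.38 for Prlr, whereas Clic6 (r = 0.60, adjusted p = 0.00629) and Otx2 (r = 0.51, adjusted p = 0.0242) did. Without the 2 of these libraries farthest from the median Ttr, neither passed (Clic6 r = 0.46, adjusted p = 0.077, Otx2 r = 0.36, adjusted p = 0.238), and Otx2 did not pass by Spearman's rho either (0.40, adjusted p = 0.11, permutation test). Otx2 and Folr1 in the PFC were at 0 in 8 and 3 of 31 libraries, so values there rest on a few reads.

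The 2 regions of a mouse were compared for each of the 9 genes over 30 mice. No relation passed the permutation test after adjustment over the 9, and the strongest were Clic6 (r = 0.44, rho = 0.34, p = 0.0139, adjusted p = 0.125) and Ttr (r = 0.35, rho = 0.38, p = 0.058, adjusted p = 0.261). In the 22 mice with neither library among the 10 left out, Ttr in the hypothalamus went with Ttr in the PFC (r = 0.65, rho = 0.64, p = 0.0009, adjusted p = 0.0081, permutation test), and without the 2 mice farthest from the median r was 0.67. The other 8 genes did not pass in those mice. Since the 10 were picked after the values had been seen, 1 of them for its Ttr, this p-value is only a description. On CPM without logs, r for Ttr over the 30 mice was -0.089.

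By the mean of all 9 genes, each on its own scale of SDs, the genes most like the set in the hypothalamus were Cldn1 (Pearson's r = 0.82), a tight junction gene, Slc37a2 (0.81), Enpp2 (0.81), which makes lysophosphatidic acid and is abundant in this epithelium, Cldn2 (0.81), the tight junction gene of leaky epithelia, and Gm44250 (0.80), over 31 libraries. In the PFC they were Gm2061 (0.71), Mc3r (0.71), Mpc1 (0.70), Gm44763 (0.67) and Bloc1s3 (0.67). Without the 10 libraries none of the 5 hypothalamic genes was among the 5 most alike, and the first was Ankub1 (0.77).

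Between the regions, 8 of the 9 genes were higher in the hypothalamus than in the PFC in the mean over the 4 conditions (edgeR's quasi-likelihood test, p adjusted by Benjamini-Hochberg over 18971 genes). Among all genes tested, 36.5% were called higher in the hypothalamus. The median log2 fold change of the 9 was 2.60, against -0.02 over all genes tested. In bulk tissue, more cells of a type and more RNA per cell cannot be told apart, here or in any later comparison.

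The largest differences were in Prlr, Otx2 and Clic6. Prlr lay between 9.54 and 68.3 CPM (median 47.0) in the hypothalamus and between 0.161 and 7.57 CPM (median 0.918) in the PFC, a log2 difference of 5.23 (SE 0.18, adjusted p = 2.21e-33 by edgeR's quasi-likelihood test). Otx2 lay between 3.35 and 12.4 CPM (median 5.35) and between 0 and 0.732 CPM (median 0.156), a log2 difference of 4.43 (SE 0.23, adjusted p = 2.79e-25). Clic6 lay between 14.8 and 45.7 CPM (median 25.8) and between 0.260 and 6.69 CPM (median 1.31), a log2 difference of 3.84 (SE 0.19, adjusted p = 5.34e-26).

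In these 3 genes and in Sostdc1 every hypothalamus library was above every PFC library, as was the case for 4.69% of all genes tested. Sostdc1 lay between 1.24 and 11.6 CPM (median 2.15) in the hypothalamus and between 0 and 1.03 CPM (median 0.384) in the PFC, a log2 difference of 2.60 (SE 0.20, adjusted p = 4.67e-18, edgeR's quasi-likelihood test). The remaining genes overlapped between the regions. Folr1 ran from 0.477 to 9.15 CPM (median 1.06) and from 0 to 1.08 CPM (median 0.373), a log2 difference of 1.84 (SE 0.28, adjusted p = 2.6e-08).

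Kl ran from 3.72 to 55.0 CPM (median 8.77) in the hypothalamus and from 2.20 to 7.76 CPM (median 4.30) in the PFC, a log2 difference of 1.15 (SE 0.16, adjusted p = 1.9e-09, edgeR's quasi-likelihood test). F5 ran from 0.739 to 30.2 CPM (median 2.08) and from 0.358 to 6.21 CPM (median 1.09), a log2 difference of 1.55 (SE 0.34, adjusted p = 5.13e-05). Ttr differed by 2.72 on the log2 scale (SE 0.57, adjusted p = 2.9e-05).

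Aqp1 was the exception. It ran from 0.0597 to 9.07 CPM (median 0.543) in the hypothalamus and from 0.0682 to 5.75 CPM (median 0.615) in the PFC, and its log2 difference of 0.27 (SE 0.38) did not pass (adjusted p = 0.517, edgeR's quasi-likelihood test). Without the 9 libraries with at least 100 CPM of Alb, the difference was -0.53 (adjusted p = 0.126). Without these and hypothalamus saline 4 weeks replicate 3 it was -0.86 (adjusted p = 0.00301). The libraries left out hold the 3 highest Aqp1 levels of the hypothalamus (9.07, 7.92 and 6.97 CPM), whereas the highest of the PFC (5.75 CPM) was kept, so no direction is read from this value.

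**Figure D4:**
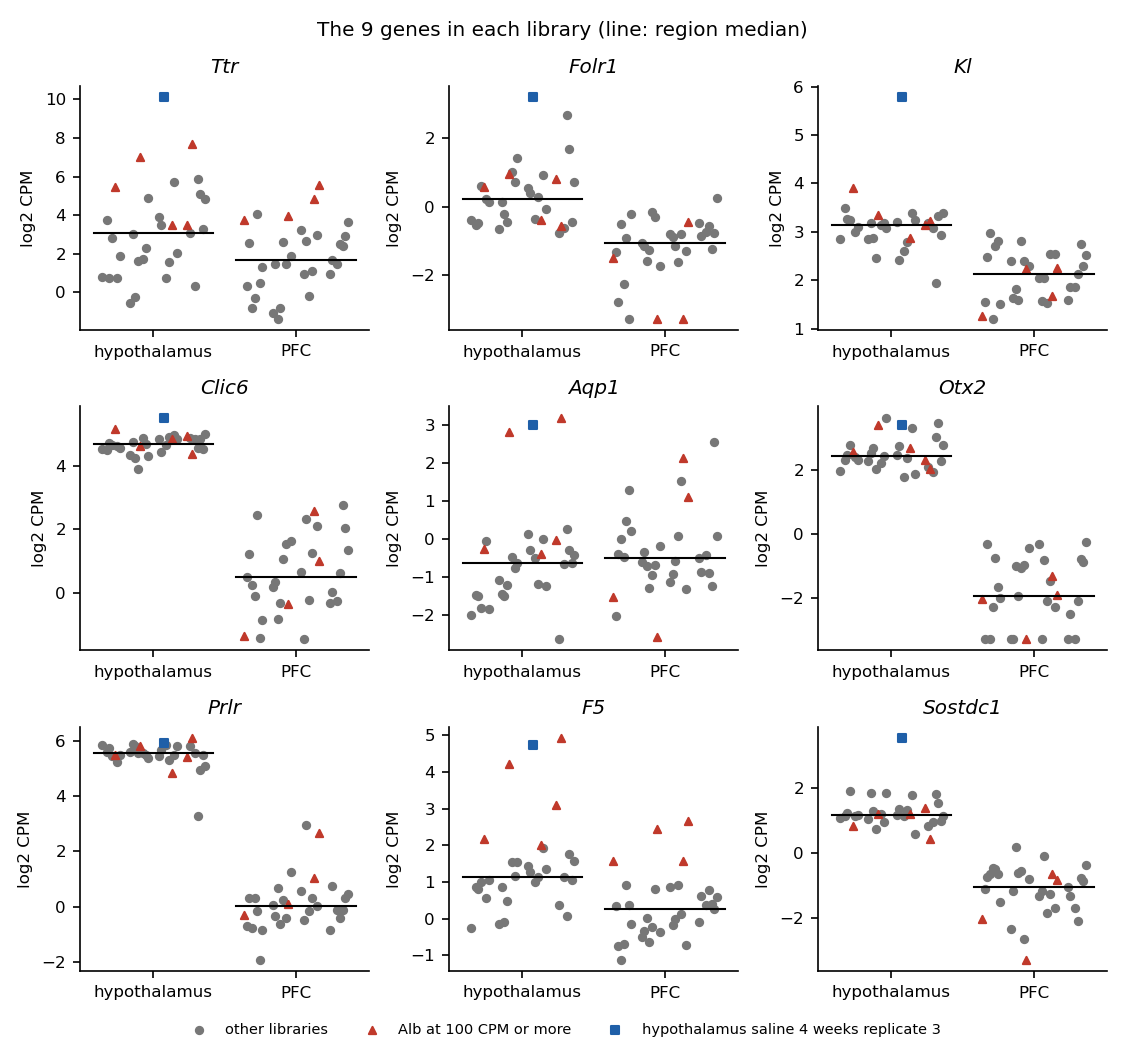
The 9 genes in each library of the hypothalamus and the PFC, in log2 CPM, with lines at the region medians. Prlr, Otx2, Clic6 and Sostdc1 do not overlap between the regions. Libraries with at least 100 CPM of Alb (red triangles) stand high in F5, and some of them in Ttr and Aqp1, and hypothalamus saline 4 weeks replicate 3 (blue squares) in Ttr, Folr1, Kl, Aqp1, F5 and Sostdc1.

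The size of the Ttr difference depended on single libraries. Without hypothalamus saline 4 weeks replicate 3 it was 1.73, and without this library and the 9 with much Alb it was 1.30 (SE 0.39, adjusted p = 0.00276, edgeR's quasi-likelihood test). With the mouse as a replicate block, since both regions of a mouse were paired, it was 1.29 (adjusted p = 0.0169). Under voom with sample quality weights it was 1.03 and did not pass (adjusted p = 0.0967, limma). The differences of F5 and Kl without the 10 libraries were 0.89 and 0.85, and both passed.

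Within single conditions 8 of the 9 genes were called higher in the hypothalamus with psilocybin at 3 h (26.8% of all genes) and with psilocybin at 4 weeks (29.4%). With saline, 6 were at 3 h (25.8%) and 7 at 4 weeks (25.7%). Prlr, Otx2, Clic6, Sostdc1, Folr1 and Kl were called in each condition by edgeR, and Aqp1 in none. Under voom with quality weights the calls of Folr1 (0.66), F5 (1.03) and Ttr (1.53) with psilocybin at 4 weeks were lost, as were those of Ttr with psilocybin at 3 h (1.61) and with saline at 4 weeks (0.55). The call of Ttr with psilocybin at 3 h was also lost without the filter on low counts (3.02) and without the extraction pool term (2.53). The Ttr difference was 2.96 (adjusted p = 0.0361) with psilocybin at 3 h, 3.30 (adjusted p = 0.0156) with psilocybin at 4 weeks, 0.85 (adjusted p = 0.559) with saline at 3 h and 3.79 (adjusted p = 0.00419) with saline at 4 weeks, by edgeR's quasi-likelihood test. Without hypothalamus saline 4 weeks replicate 3, the last of these was 0.28. With the mouse as a replicate block the calls of Ttr were lost in the 3 conditions (log2 differences of 1.79, 1.64 and 1.02), as were those of F5 with psilocybin at 3 h (1.12) and at 4 weeks (0.92).

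Without hypothalamus psilocybin 3 h replicate 5, the differences with psilocybin at 3 h were 1.40 for Ttr and 0.57 for F5, and neither passed. Without hypothalamus psilocybin 4 weeks replicate 3, those at 4 weeks were 1.96 for Ttr and 1.24 for F5, and neither passed. These are the libraries with the most Alb. The calls at 3 h were also lost without single PFC libraries of psilocybin 3 h, for Ttr without replicate 1, 3, 4, 6 or 8 (2.80 to 2.87) and for F5 without replicate 1, 4, 5 or 8 (1.56 to 1.60). Folr1 at 4 weeks with psilocybin was 1.55 and fell to 1.03 without hypothalamus psilocybin 4 weeks replicate 5, where it no longer passed. With saline at 3 h, Folr1 was 1.50 and did not pass without PFC saline 3 h replicate 3 (1.32) or 7 (1.30).

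Hypothalamus psilocybin 4 weeks replicate 5 stood apart in other genes of the set as well. It held 9.54 CPM of Prlr, against 30.5 to 68.3 CPM in the other 7 of its group, and 3.72 CPM of Kl, against 7.60 to 10.4 CPM. Its Ttr was at 58.7 CPM and its Folr1 at 6.34 CPM, the second highest of the hypothalamus. Its ependymal markers summed to 588 CPM, the highest of all libraries, and its hypothalamic neuron markers to 2735 CPM, also the highest.

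Among 24 tested genes of the further choroid plexus list, 13 were higher and 9 lower in the hypothalamus, with a median log2 fold change of 0.49, where 36.5% of all genes were higher and 39.6% lower. The 3 with the smallest p were Rdh5, a retinol dehydrogenase gene (log2 difference 1.49, SE 0.09, adjusted p = 2.77e-23), Calml4, a calmodulin-like gene (3.77, SE 0.24, adjusted p = 3.25e-21), and Igfbp2, which binds insulin-like growth factors (-2.03, SE 0.14, adjusted p = 2.72e-19), by edgeR's quasi-likelihood test. The summed level of the list was lower in the hypothalamus, with a median of 356 CPM against 524 CPM. Enpp2 made up most of it, with a median of 229 CPM in the hypothalamus and 304 CPM in the PFC, and without Enpp2 the medians of the sum were 138 and 213 CPM. All 10 meningeal markers were lower in the hypothalamus too. Htr2c, a serotonin receptor gene of this epithelium and of neurons, ran from 36.4 to 136 CPM (median 112) in the hypothalamus and from 4.57 to 58.6 CPM (median 18.5) in the PFC.

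Psilocybin was compared with saline in each region at each harvest. None of the 9 genes was called in any of the 4 comparisons, by edgeR's quasi-likelihood test, DESeq2 or voom with limma. Among all genes tested, edgeR called 0% in the hypothalamus at 3 h, 0% in the hypothalamus at 4 weeks, 0.0105% in the PFC at 3 h and 0% in the PFC at 4 weeks. The authors, by voom with quality weights and correlation within mouse, reported many more changed genes in the PFC at 3 h. The shares of all genes under voom and DESeq2 are not given here. Of the 9 genes, 1, 1, 0 and 1 had an unadjusted p under 0.05, where 1.78%, 9.61%, 7.23% and 2.4% of all genes did.

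These 3 were Aqp1 in the hypothalamus at 3 h, Kl in the hypothalamus at 4 weeks and Prlr in the PFC at 4 weeks. Aqp1 at 3 h lay between 0.148 and 0.873 CPM (median 0.257) with saline and between 0.252 and 6.97 CPM (median 0.432) with psilocybin, where the highest value was that of replicate 5, the library with 2771 CPM of Alb. The log2 fold change was 1.77 (SE 0.79, adjusted p = 1), and without that library it was 0.042. Kl at 4 weeks lay between 5.22 and 55.0 CPM (median 8.16) with saline and between 3.72 and 10.4 CPM (median 8.85) with psilocybin, a log2 fold change of -0.65 (SE 0.30, adjusted p = 0.484, edgeR's quasi-likelihood test), and without hypothalamus saline 4 weeks replicate 3 it was 0.12.

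Prlr in the PFC at 4 weeks lay between 0.606 and 7.57 CPM (median 1.26) with saline and between 0.461 and 1.58 CPM (median 0.820) with psilocybin, a log2 fold change of -1.60 (SE 0.40, adjusted p = 0.491, edgeR's quasi-likelihood test). The groups overlapped, and 2 of the 8 saline libraries, replicates 3 and 8, were above every psilocybin library by a wide margin, at 7.57 and 6.29 CPM.

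**Figure D5:**
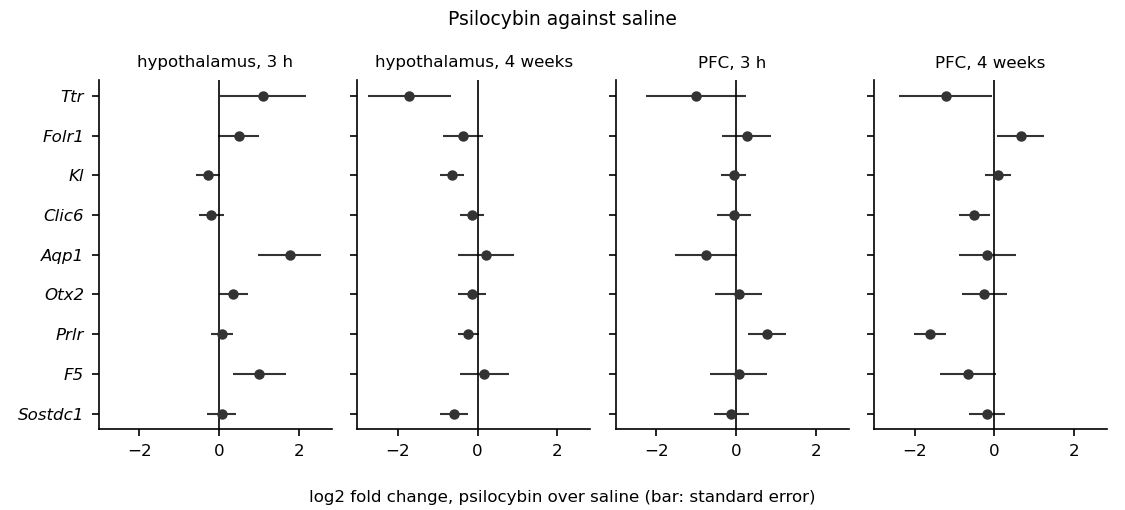
Log2 fold change of psilocybin over saline for the 9 genes in each region and at each harvest, with bars of 1 standard error. The widest bars are those of Ttr, with standard errors between 1.05 and 1.25, and the narrowest those of Prlr and Kl in the hypothalamus, between 0.26 and 0.31.

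For Ttr the fold changes and their errors were of the same size. They were 1.11 (SE 1.08) in the hypothalamus at 3 h, -1.71 (SE 1.05) in the hypothalamus at 4 weeks, -1.0 (SE 1.25) in the PFC at 3 h and -1.22 (SE 1.16) in the PFC at 4 weeks. The 95% interval at 4 weeks in the hypothalamus ran from -3.76 to 0.34. The sign turned to 2.07 when hypothalamus saline 4 weeks replicate 3 was left out. At 3 h in the hypothalamus it turned to -0.57 when psilocybin replicate 5 was left out.

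Genes that varied less than Ttr in the hypothalamus gave narrower intervals. The SD of log2 CPM there was 0.498 for Prlr, 0.301 for Clic6 and 0.498 for Otx2, against 2.45 for Ttr. The intervals rest on the spread fitted over both regions. By that measure each of these genes still stood at or above percentile 92.7 of the genes tested. For Prlr in the hypothalamus the log2 fold change was 0.07 (95% interval -0.46 to 0.60) at 3 h and -0.24 (-0.76 to 0.28) at 4 weeks. For Clic6 it was -0.19 (-0.81 to 0.42) at 3 h and -0.14 (-0.74 to 0.46) at 4 weeks. For Otx2 it was 0.35 (-0.36 to 1.07) at 3 h and -0.14 (-0.83 to 0.56) at 4 weeks.

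The effect of psilocybin on the 9 genes was also compared between harvests within each region and between regions within each harvest. None of the 9 differed by edgeR's quasi-likelihood test in these 4 comparisons, in each of which 0% of all genes did. The number of the 9 with an unadjusted p under 0.05 was 0 between harvests in the hypothalamus, 1 between harvests in the PFC, 1 between regions at 3 h and 1 between regions at 4 weeks, and of all genes 5.27%, 3.08%, 2.78% and 6.69% had one. DESeq2 and voom called none either.

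Between the harvests, which were also different mice, 1 gene of the 9 was called in 1 of 4 comparisons. Prlr in the PFC with saline was at 0.161 to 1.15 CPM (median 0.611) at 3 h and at 0.606 to 7.57 CPM (median 1.26) at 4 weeks, a log2 difference of -2.15 (SE 0.41, adjusted p = 0.000484, edgeR's quasi-likelihood test), where 2.34% of all genes were called lower at 3 h. At 4 weeks 6 of the 8 libraries lay between 0.606 and 1.96 CPM. The others were replicate 3 at 7.57 CPM and replicate 8 at 6.29 CPM, and the difference was -1.46 (adjusted p = 0.0193) without the former and -1.86 (adjusted p = 0.00277) without the latter. Under voom with quality weights it did not pass (-1.63, adjusted p = 0.12, limma).

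Other markers moved in both libraries. In replicate 3 the 10 markers of hypothalamic neurons summed to 26.3 CPM, against 2.07 to 8.45 CPM in the other 7 libraries of the group. In replicate 8 they summed to 3.79 CPM, but the liver genes summed to 1699 CPM. Their part in the difference was not tested. With saline in the hypothalamus, Ttr was lower at 3 h by edgeR's estimate of -3.74 (SE 1.29), which did not pass (adjusted p = 0.254). DESeq2 called it (-3.94, adjusted p = 0.012), and edgeR called Ttr (-5.20, adjusted p = 0.0269) and F5 (-1.84, adjusted p = 0.0457) without the libraries with much Alb. The 4-week group holds saline 4 weeks replicate 3 with its 1114 CPM of Ttr, and without this library the Ttr difference was -0.49 by edgeR. With all libraries no member passed by edgeR there (0.685% of all genes did), or in the hypothalamus with psilocybin (1.16%) or the PFC with psilocybin (5.96%). With an unadjusted p under 0.05 there were 3 members in the hypothalamus with saline (8.09% of all genes) and 0 in the hypothalamus (17.4%) and the PFC (20.4%) with psilocybin. The difference between the regions in the harvest difference with saline called 0 of the 9 genes (0.0369% of all genes), with 1 at an unadjusted p under 0.05 (5.84% of all genes). By leaving out PFC saline 4 weeks replicate 1, 2, 4 or 5, Prlr was called in it (2.25 to 2.30).

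The second extraction pool of the PFC (cages 5 to 8) held more Clic6 than the first. Clic6 ran from 0.260 to 4.90 CPM (median 0.905, n = 15) in the first pool and from 0.269 to 6.69 CPM (median 2.37, n = 16) in the second, a log2 difference of 1.07 (SE 0.30, adjusted p = 0.0063, edgeR's quasi-likelihood test). Of all genes tested, 13.4% were higher in the second pool. Both pools overlapped over most of their range. No other member passed by edgeR with all libraries. DESeq2 also called Ttr (1.70), and edgeR fits of each region alone called Ttr (1.64) and Aqp1 (1.36). Kl (0.62) and Otx2 (1.62) were called under voom, and Aqp1 (1.18) by edgeR with 10 libraries left out. For these runs the shares of all genes called are not given. The edgeR estimates with all libraries were 1.33 (SE 0.54, adjusted p = 0.0624) for Aqp1 and 1.58 (SE 0.88, adjusted p = 0.182) for Ttr, and Aqp1 was called without PFC saline 3 h replicate 4 or 5 or psilocybin 3 h replicate 7 (1.38 to 1.43).

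In the same comparison 14 of the 24 further choroid plexus genes were higher in the second PFC pool and none lower: Krt18 (2.17), Calml4 (1.36), 1500015O10Rik (1.28), Cldn2 (1.21), Igf2 (1.13), Col8a2 (0.99), Slc13a4 (0.92), Bmp6 (0.89), Msx1 (0.85), Lbp (0.80), Abca4 (0.61), Igfbp2 (0.56), Ace (0.51) and Rdh5 (0.36), in log2 fold change. All 10 meningeal markers, all 5 red blood cell genes and all 7 striatal markers were higher as well. The medians of the summed levels in the first and second pool were 181 and 354 CPM for the meningeal markers, 135 and 205 CPM for the striatal markers and 176 and 368 CPM for the red blood cell genes. Their part in the difference was not tested.

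In the hypothalamus no member differed between the pools by edgeR's quasi-likelihood test (17.4% of all genes did), with 1 at an unadjusted p under 0.05 (32.8% of all genes), while 7 of the 24 further genes did: Lbp, Rdh5, 1500015O10Rik, Calml4, Msx1 and Col8a2 were higher by 0.42 to 1.10 and Ace lower by 0.31 on the log2 scale. In the same comparison 10 of 14 ependymal markers, 5 of 8 tanycyte markers and 3 of 5 red blood cell genes were higher in the second pool and none lower, and the medians of the summed ependymal markers were 116 CPM in the first and 251 CPM in the second pool. Their part in the difference was not tested. DESeq2 called 0 of the 9 there, and voom with limma called 3, which were Folr1 (0.70), Otx2 (0.37) and Prlr (-0.34). The shares of all genes called by these methods are not given here, so these counts are not set against them. Without saline 4 weeks replicate 3, edgeR called Folr1 (1.13).

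Some counts are less certain than others because genes overlap. Ttr (chr18:20665280-20674321), Kl (chr5:150952607-150993817), Aqp1 (chr6:55336432-55348555) and Sostdc1 (chr12:36314139-36318452), all on the plus strand of GRCm38, share no base with another annotated gene. Folr1 (chr7:101858331-101870707, minus strand) overlaps Anapc15, and Otx2 (chr14:48657677-48673819, minus strand) overlaps Otx2os1, on the opposite strands. Otx2 also overlaps Gm49154, Clic6 (chr16:92485736-92541243) overlaps 2410124H12Rik, Prlr (chr15:10177238-10348286) overlaps Gm21973 and F5 (chr1:164151838-164220277) overlaps Gm16588, each on its own strand, and F5 overlaps Gm16548 on the other. The share of reads these genes could take or give was not tested.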

How the data were processed

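RNA from the whole hypothalamus and the PFC was sequenced as stranded, paired-end, poly(A)-selected libraries. The authors converted base calls with bcl2fastq 2.20.0, aligned reads with STAR 2.7.2b to GRCm38 with GENCODE annotation, and counted them per gene with featureCounts 1.6.2, and the deposited values are these raw counts for 55401 genes. Reads were counted if the ends of a pair lay on one strand, and whether the strand of the gene was used is not given in the sources used here. Gene names were taken from the annotation by identifier (55141 matched).

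Libraries under 1000000 counts were left out (2 of 64). The authors also dropped 1 library rich in wound healing and immune genes. Which one is not given in the sources used here, so it may be among the 62 kept. The rest were fitted in 1 model with edgeR 4.0.16 (R 4.3.3): TMM scaling, a filter on low counts per group with a minimum count of 10 (18971 genes kept), robust quasi-likelihood fits with a term for each of the 8 groups and for extraction pool within region, and Benjamini-Hochberg adjustment over all genes with a threshold of 0.05. The code recovered known changes when tested on simulated data. CPM use TMM library sizes, and log2 CPM a prior count of 2. A count of 0 allows up to 3 reads. Intervals are for the difference of group means and rest on the fitted spread between mice. The SE from edgeR is the size of the log2 fold change divided by the square root of the test's F statistic. Samples were grouped by the labels. Libraries with the same treatment, harvest and cage number in both regions came from the same mouse, so the mouse pairs them by design. Within a region the number is only the cage.

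The genes and marker lists were chosen with earlier results of these data known. The liver list, the minimums of 100 and 300 CPM of Alb and the leaving out of hypothalamus saline 4 weeks replicate 3 were chosen after these values were seen. All 9 genes were named, of the further choroid plexus list the 3 with the smallest p and those called, and by likeness the 5 genes most correlated with the mean of the 9. Alternatives used DESeq2 1.42.0, voom in limma 3.58.1, other scalings, filters and blocks, and each library left out in turn. Correlations were computed in Python 3.11.15 with numpy 2.4.6 and pandas 2.3.3. Promoter letters came from RefSeq on GRCm38.p6. No column of the count table was left unused.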

Additional observations from a re-analysis of the deposited data

Results flagged for a closer look

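Within groups of 7 or 8 libraries, 72 combinations of gene and group were searched for a single value far from the rest by Dixon's test, and 15 were found. Chance flags about 1 in 20 groups, and genes of 1 library are not independent.

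Of these values, 5 came from hypothalamus saline 4 weeks replicate 3. Its Folr1 was at 9.15 CPM against 0.667 to 1.79 CPM in the other 7 mice, its Kl at 55.0 CPM against 5.22 to 10.4 CPM, its Aqp1 at 7.92 CPM against 0.325 to 1.01 CPM, its F5 at 26.6 CPM against 1.89 to 3.93 CPM and its Sostdc1 at 11.6 CPM against 1.40 to 3.39 CPM. The PFC of the same mouse had 6.14 CPM of Ttr.

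Libraries with at least 100 CPM of Alb held others. Hypothalamus psilocybin 3 h replicate 5 had 6.97 CPM of Aqp1 against 0.252 to 0.619 CPM and 18.4 CPM of F5 against 0.799 to 2.83 CPM. PFC psilocybin 3 h replicate 7 had 5.39 CPM of F5 against 0.547 to 1.64 CPM, and little Aqp1, 0.0682 CPM against 0.313 to 0.790 CPM. Hypothalamus saline 3 h replicate 6 had 35.3 CPM of Clic6 against 22.4 to 26.4 CPM. Folr1 was at 0 CPM in PFC saline 4 weeks replicate 6, which also held much Alb, against 0.220 to 0.625 CPM in the others, where 3 reads in that library would have been 0.178 CPM.

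The remaining values lay elsewhere. Hypothalamus psilocybin 4 weeks replicate 5 had 3.72 CPM of Kl against 7.60 to 10.4 CPM and 9.54 CPM of Prlr against 30.5 to 68.3 CPM. PFC psilocybin 4 weeks replicate 7 had 5.75 CPM of Aqp1 against 0.323 to 0.955 CPM. Hypothalamus saline 3 h replicate 5 had 3.65 CPM of Sostdc1 against 1.67 to 2.26 CPM. What sets these values apart was not tested.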

How the results depend on the processing

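The region differences of Prlr, Otx2, Clic6, Sostdc1, Folr1, F5 and Kl over all conditions kept their direction and call under each alternative run. Scaling by DESeq2's size factors and fits without robust estimation changed no call or direction. Aqp1 between regions was -0.39 with the mouse as replicate block, -0.52 under voom, -0.53 without the libraries with 100 CPM or more of Alb and -0.86 with 10 libraries left out, and -0.16 to 0.48 with single libraries left out. With the cage as replicate block (not paired by the labels beyond the cage), psilocybin at 4 weeks gave -0.083 for Aqp1 in the hypothalamus, 0.20 for Otx2 and 0.12 for Sostdc1 in the PFC, and 0.28 for Clic6 in the PFC at 3 h, and no call changed. The cause of each change was not tested.

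Other psilocybin effects, none of which passed in any setting, turned sign as follows. Under voom they were 0.85 for Ttr, 0.13 for Kl, -0.39 for Aqp1, 0.030 for Otx2 and -0.032 for F5 in the hypothalamus at 4 weeks, -0.0039 for Sostdc1 there at 3 h, 0.16 for Kl, 0.80 for Clic6, -0.65 for F5 and 0.050 for Sostdc1 in the PFC at 3 h, and 0.025 for Otx2 and 0.082 for Sostdc1 in the PFC at 4 weeks. Without the Alb libraries they were -1.18 for Aqp1 and -1.47 for F5 in the hypothalamus at 4 weeks, -0.081 for F5 in the PFC at 3 h, and -5.57e-05 for Kl, 0.22 for Aqp1 and 0.059 for F5 in the PFC at 4 weeks. With 10 libraries left out they were 0.28 for Ttr, 0.46 for Folr1, 0.037 for Kl, -0.21 for Aqp1, 0.081 for Otx2 and -0.39 for F5 in the hypothalamus at 4 weeks, -0.081 for F5 in the PFC at 3 h, and -3.87e-05 for Kl, 0.22 for Aqp1 and 0.059 for F5 in the PFC at 4 weeks. With all 64 libraries Sostdc1 was -0.019 in the hypothalamus at 3 h, and without the pool term Clic6 was 0.090 in the PFC at 3 h.

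Leaving out 1 library at a time gave these ranges. In the hypothalamus at 3 h they were -0.57 to 2.53 for Ttr, -0.19 to 1.42 for F5 and -0.059 to 0.22 for Sostdc1. At 4 weeks they were -3.58 to 2.07 for Ttr, -0.82 to 0.58 for Folr1, -0.76 to 0.12 for Kl, -1.31 to 1.37 for Aqp1, -0.27 to 0.043 for Otx2 and -0.97 to 1.35 for F5. In the PFC at 3 h they were -0.00046 to 0.61 for Folr1, -0.17 to 0.14 for Kl, -0.28 to 0.48 for Clic6, -0.24 to 0.74 for Otx2, -0.53 to 0.59 for F5 and -0.51 to 0.066 for Sostdc1. At 4 weeks they were -1.12 to 0.12 for Aqp1, -0.76 to 0.084 for Otx2 and -0.43 to 0.16 for Sostdc1. The number of the 9 called ran from 1 to 2 between harvests in the PFC with saline, 0 to 1 between pools of the hypothalamus, 1 to 2 between pools of the PFC and 0 to 1 for the harvest difference with saline between regions.

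The number of the 9 called moved by over 1.5 times in these cases, for which the shares of all genes called are not given. Between regions with psilocybin at 4 weeks it was 5 under voom. Between harvests with saline it was 1 by DESeq2 and 2 without the Alb libraries in the hypothalamus, and 0 under voom in the PFC. Between hypothalamus pools it was 3 under voom, 1 with separate fits per region and 2 with 10 libraries left out, and between PFC pools 2 by DESeq2, 3 under voom, 3 with separate fits and 2 with 10 libraries left out.

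Correlations with Ttr that turned sign were, on CPM without logs, 0.021 for Folr1, -0.074 for Kl, 0.14 for Aqp1 and 0.054 for Sostdc1 in the PFC, and between the regions of a mouse -0.089 for Ttr and -0.0021 for Folr1. Without the 2 farthest libraries they were -0.060 for Prlr in the hypothalamus and 0.054 for Folr1, 0.021 for Aqp1 and 0.17 for Sostdc1 in the PFC. With 10 libraries left out they were -0.063 for Clic6 and -0.33 for Prlr in the hypothalamus, 0.18 for Folr1 and 0.14 for Sostdc1 in the PFC, and -0.025 for Folr1 between the regions. Depth limits Folr1, Otx2, Aqp1 and Sostdc1 most, since in the PFC they rest on few reads.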

Other observations

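Markers of other cell types and tissues were also compared between the regions, by edgeR's quasi-likelihood test with an adjusted p under 0.05. Among all genes tested, 36.5% were higher and 39.6% lower in the hypothalamus. Of 8 tanycyte markers 4 were higher and 4 lower in the hypothalamus. All 6 endothelial markers were lower there and all 6 thalamic markers higher. Of 7 striatal markers 4 were higher and 2 lower. Of 2 tested markers of the anterior pituitary 1 was higher, and of 5 red blood cell genes none was called. Of the 20 liver genes, listed after the values had been seen, 14 were higher in the hypothalamus and none lower. They summed to 6467 CPM in hypothalamus psilocybin 4 weeks replicate 3 and 4609 CPM in psilocybin 3 h replicate 5. The median over the hypothalamus libraries was 7.25 CPM, so no trait of the region is read from this count.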
